A study of Mus musculus with 8 samples.

Results

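A set of 10 genes of developing and mature T cells, Cd3d, Cd3e, Cd3g, Trbv1, Cd8a, Lck, Rag1, Rag2, Dntt and Ptcra, were followed across 8 Affymetrix arrays of newborn mouse tissue. They were chosen by name, with the difference between the nicotine 4.5 arrays and the other arrays already known. Each gene was read through the probe sets annotated to its symbol alone. Of the 10 genes, 9 had such a probe set, 16 probe sets in all, out of 18194 genes with one. Lck, the kinase that starts T cell receptor signalling, had none and was not analysed here.

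The tissue was labelled as palate, taken from its posterior part, and came from BALB/c pups on postnatal day 1. During pregnancy the dams carried a subcutaneous osmotic minipump that released nicotine at 4.5 mg/kg/day, at 3.0 mg/kg/day or at 1.5 mg/kg/day, or sterile physiological saline. Each of the 4 groups was read on 2 arrays, named as biological replicates. The extraction notes give 2 pups without saying whether per array or per group, and no litters, so p-values measure only the spread between these samples, which may be technical. In a bulk tissue, fewer cells of a type and less RNA per cell cannot be told apart.

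T cells arise in the thymus from precursors that enter from the blood. A precursor joins the gene segments of its receptor beta chain with the RAG1 and RAG2 recombinase, while terminal transferase, the product of Dntt, adds bases at the joints. The beta chain first pairs with the pre-T cell receptor alpha chain, the product of Ptcra, and signals through the CD3 subunits and the kinase LCK. Cells then carry both CD4 and CD8 and join the alpha chain segments before they are selected and leave. RAG1 and RAG2 also act in B cell precursors, so they do not mark T cells alone.

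The arrays differed in other ways that bear on these genes. Saline replicate 2 stood apart in blood cell genes: its median log2 level over 9 red cell precursor genes was 8.36, against 4.803 to 6.54 in the other arrays, and over 11 neutrophil genes it was 9.44, against 5.92 to 7.62. Both saline arrays were also far higher in some genes. Cym read 5168 and 5000 in saline, against 5.20 to 11.9 in the nicotine arrays, and Apoa4 4057 and 2762, against 3.11 to 120. Contrasts with saline include this difference, and its cause was not tested. Of 8 genes of palate tissue, chosen after the data were seen, 4 or 5 were above the background limit on each array. Meox2, Tgfb3 and Osr2, the last a transcription factor of the palatal shelves, were above it on all 8, while Tbx22, a palate transcription factor, stayed at 2.17 to 5.67 intensity units and Pax9 at 6.23 to 17.8. The 3′ to 5′ intensity ratio of the actin control probe sets, a measure of RNA quality, was 1.15 and 0.95 in the nicotine 4.5 arrays, against 1.05 to 1.74 in the other 6.

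The promoters of the genes are shown first, because the members that were high in the nicotine 4.5 arrays and those that were not are expressed in the same lineage. Each sequence is the 250 bases before the RefSeq start on the mouse build GRCm38.p6, read 5′ to 3′ in the direction of the gene. Of the 9 measured genes, 8 had a sequence in the RefSeq table. Printed are those of Rag1, Cd3d and Cd3g, which were high in the nicotine 4.5 arrays, and that of Ptcra, which was not. Capitals mark matches on either strand to the letters TGTGGT (bound by RUNX factors), CAGCTG (an E-box bound by E proteins), CTTTGA (bound by TCF-1 and LEF-1) and AGATAA (bound by GATA factors).
Rag1, chr2:101649533-101649782, minus strand: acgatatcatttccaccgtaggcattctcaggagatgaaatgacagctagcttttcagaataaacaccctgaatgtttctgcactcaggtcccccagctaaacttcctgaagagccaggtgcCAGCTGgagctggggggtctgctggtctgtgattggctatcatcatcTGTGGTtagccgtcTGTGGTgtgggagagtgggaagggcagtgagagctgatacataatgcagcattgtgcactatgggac
Cd3d, chr9:44981536-44981785, plus strand: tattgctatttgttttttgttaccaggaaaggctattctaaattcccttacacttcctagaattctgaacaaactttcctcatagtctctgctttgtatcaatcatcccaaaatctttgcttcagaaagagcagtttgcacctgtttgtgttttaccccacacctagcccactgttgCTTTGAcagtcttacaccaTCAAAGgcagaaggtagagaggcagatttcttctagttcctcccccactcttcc
Cd3g, chr9:44980432-44980681, minus strand: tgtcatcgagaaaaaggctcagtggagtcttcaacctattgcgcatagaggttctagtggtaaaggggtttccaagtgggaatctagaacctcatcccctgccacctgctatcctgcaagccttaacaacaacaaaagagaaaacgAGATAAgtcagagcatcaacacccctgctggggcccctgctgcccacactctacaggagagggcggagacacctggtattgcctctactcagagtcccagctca
Ptcra, chr17:46763713-46763962, minus strand: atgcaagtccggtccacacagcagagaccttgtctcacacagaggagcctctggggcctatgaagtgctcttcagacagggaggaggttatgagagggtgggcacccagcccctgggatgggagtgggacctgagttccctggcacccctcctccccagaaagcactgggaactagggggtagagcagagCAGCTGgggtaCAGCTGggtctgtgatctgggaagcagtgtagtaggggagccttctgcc

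The RUNX letters were in 1 of the 8 promoters, against 14.0% of all 32851 RefSeq promoter windows of the same length. In Rag1 they began 81 and 67 bases before the start, with an E-box match at 128 bases. The E-box letters were in 2 of 8, against 13.0% of all windows, and Ptcra held both of its copies at 60 and 49 bases. The TCF-1 and LEF-1 letters were in 1 of 8, that of Cd3d at 73 and 54 bases, against 13.8% of all windows. GATA letters were in 2 of 8, at 104 bases in Cd3g and at 112 bases in Dntt, against 9.99% of all windows. None of the 4 motifs was in the windows of Cd3e, Rag2 or Cd8a, which says only that these letters are not there. The promoters of Cd3d, Cd3e and Cd3g all lie on chromosome 9 and those of Rag1 and Rag2 on chromosome 2.

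The deposited values are intensities on a linear scale, and each value below is the intensity of 1 array unless a log2 level is named. Log2 levels are log2(intensity + 16) after quantile normalization, and differences are the mean of the 2 nicotine 4.5 arrays minus the mean of the 6 other arrays on that scale. The added 16 makes differences of dim genes smaller. A background limit was set at the 60th percentile of all probe-set values, a log2 level of 5.73, which corresponds to 34.5 to 42.6 intensity units depending on the array. Because the members were chosen for the contrast with the nicotine 4.5 arrays, their values in it are a description and carry no test.

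Of the 9 measured genes, 6 were above the limit in at least 1 nicotine 4.5 array, and no probe set of any of the 9 did so in any other array. Trbv1, Rag1 and Cd3g were above it in both nicotine 4.5 arrays. Cd3d, Cd3e and Cd8a were above it in nicotine 4.5 replicate 2 alone. Rag2, Dntt and Ptcra stayed at background in all 8 arrays. Of all 18194 genes, 54.1% were above the limit in both nicotine 4.5 arrays. The share of all genes above it in at least 1 nicotine 4.5 array, or in none of the others, was not taken. Nothing is read from those counts.

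**Figure D1:**
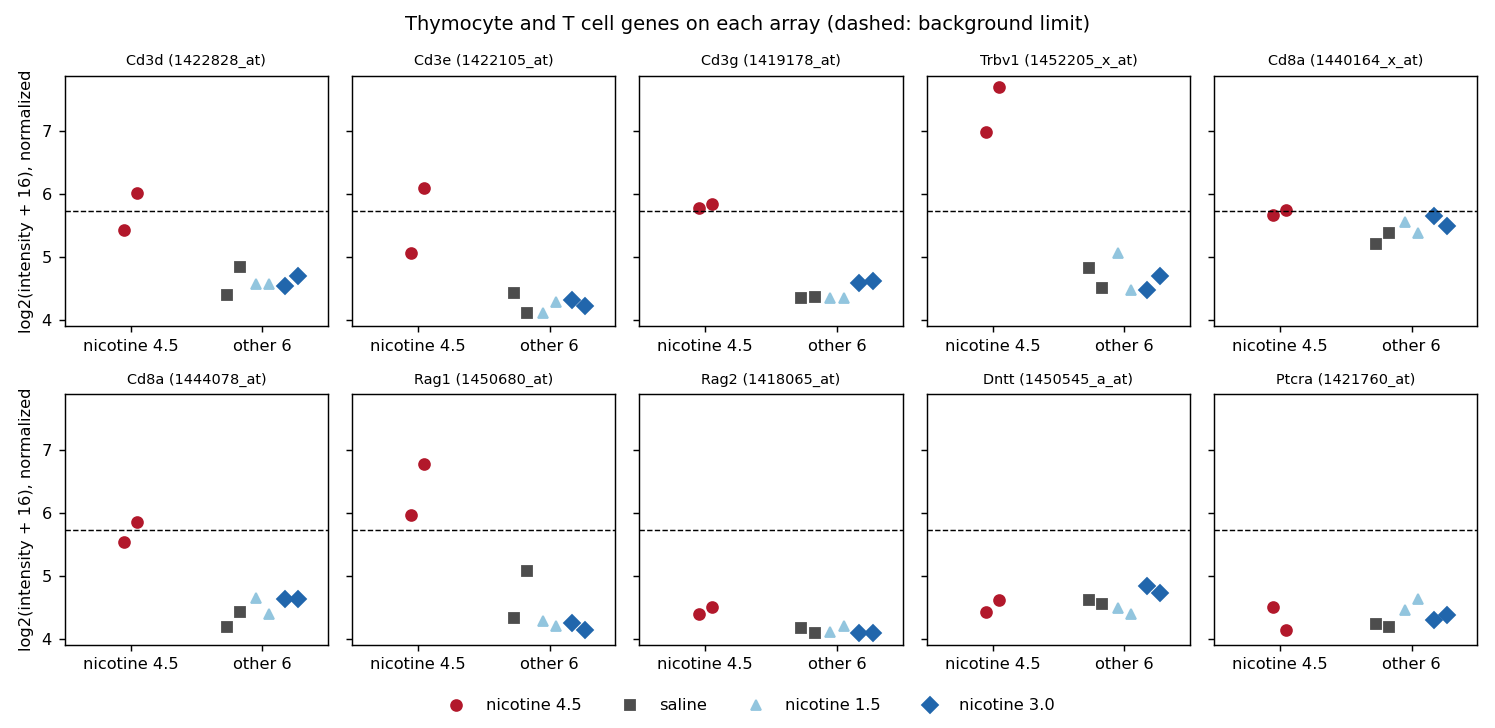
Log2(intensity + 16) after normalization of the 9 measured genes on each array, with 2 probe sets for Cd8a; each point is 1 array, nicotine 4.5 at left and the other 6 arrays at right, and the dashed line is the background limit of 5.73. Trbv1, Rag1 and Cd3g lie above the line in both nicotine 4.5 arrays, and no gene does in any other array.

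The CD3 subunits carry the signal of the T cell receptor into the cell, and their genes are expressed in T cells and thymocytes. Cd3g had intensities of 36.1 and 38.5 in the nicotine 4.5 arrays, against 4.81 and 4.62 in saline, 4.02 and 4.41 at nicotine 1.5 and 8.13 and 8.58 at nicotine 3.0. The 2 nicotine 4.5 arrays were nearly equal for this gene and lay far above the others, among which the nicotine 3.0 pair was highest. Its log2 level was 5.81 ± 0.048 (SD, n = 2) at nicotine 4.5 and 4.44 ± 0.128 (SD, n = 6) in the rest, a difference of 1.37.

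Cd3d read 25.1 and 45.1 in the nicotine 4.5 arrays, against 5.48 and 12.5 in saline, 7.36 and 7.92 at nicotine 1.5 and 7.31 and 9.94 at nicotine 3.0. Its difference was 1.12, from 5.72 ± 0.415 (SD, n = 2) and 4.61 ± 0.153 (SD, n = 6). Cd3e read 16.3 and 49.0 at nicotine 4.5, against 6.01 and 1.27 in saline, 1.33 and 3.43 at nicotine 1.5 and 4.08 and 2.79 at nicotine 3.0. For both genes the groups did not overlap, and nicotine 4.5 replicate 2 was well above replicate 1. The Cd3e difference was 1.33, with an SD of 0.736 between the 2 nicotine 4.5 arrays.

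Trbv1 encodes a variable segment of the T cell receptor beta chain. Its probe set with the higher mean read 104 and 180 in the nicotine 4.5 arrays, against 13.8 and 6.68 in saline, 17.3 and 6.33 at nicotine 1.5 and 6.44 and 10.1 at nicotine 3.0. The difference was 2.66 on the log2(intensity + 16) scale, with the other 6 arrays all under the background limit, and 1.37 as the mean of its probe sets, which is below that of Rag1. A second Trbv1 probe set behaved differently. It read 17.9 and 26.3 at nicotine 4.5, against 23.5 and 34.5 in saline, 19.4 and 19.3 at nicotine 1.5 and 19.5 and 17.5 at nicotine 3.0, a difference of 0.075 with overlapping groups. The name of the first probe set ends in _x_at, which Affymetrix gives where probes can also bind other transcripts, and the sources used here do not give which receptor transcripts it reads.

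Cd8a, the alpha chain of the CD8 coreceptor of killer T cells and their thymic precursors, had 5 probe sets that did not act alike. The one used for the gene by its mean level read 32.6 and 34.9 at nicotine 4.5, against 24.1 and 25.99 in saline, 30.7 and 28.2 at nicotine 1.5 and 32.8 and 27.7 at nicotine 3.0. Its difference was 0.26, and its groups were apart by 0.023 after normalization but overlapped in the deposited intensities. The name of this probe set ends in _x_at as well. A dimmer probe set showed a wider gap, with 28.2 and 38.7 at nicotine 4.5, against 2.43 and 5.30 in saline, 8.59 and 4.86 at nicotine 1.5 and 8.78 and 8.91 at nicotine 3.0. This probe set differed by 1.21, and another, at 19.0 and 12.6 against 3.93 to 8.48, by 0.55 without overlap. The other 2 probe sets of Cd8a differed by 0.32 and 0.23 and overlapped.

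**Figure D2:**
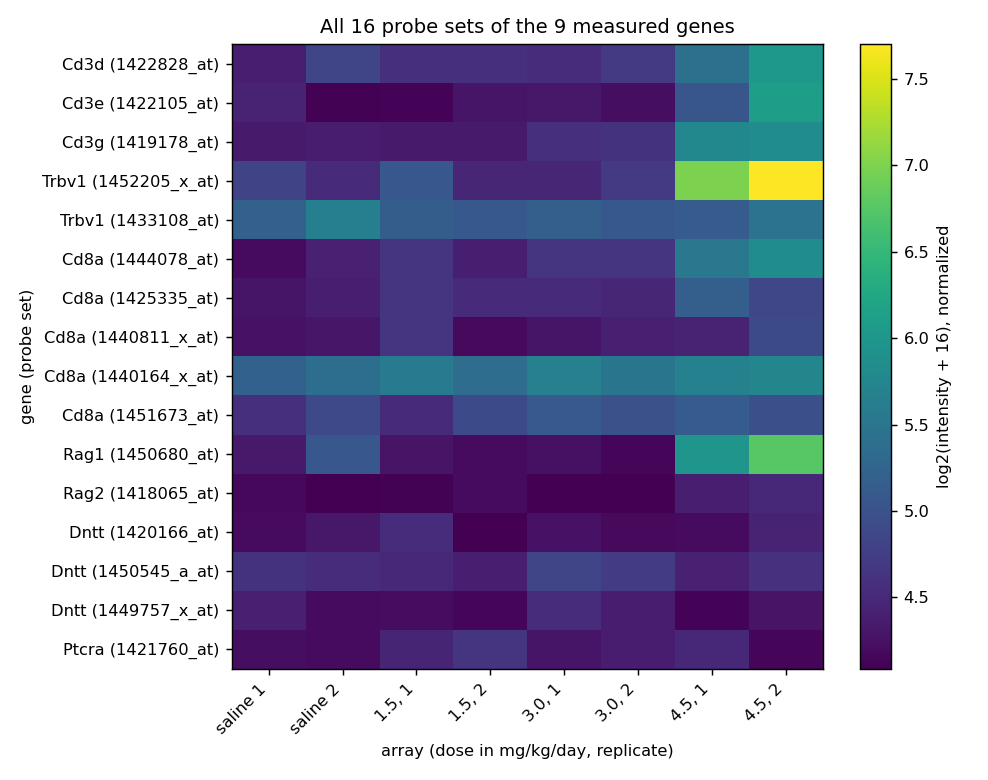
Log2(intensity + 16) after normalization of the 16 probe sets (rows) on the 8 arrays (columns, dose in mg/kg/day and replicate), with colour giving the level. The brightest cells are 1 Trbv1 probe set in both nicotine 4.5 arrays and Rag1 in nicotine 4.5 replicate 2, and the rows of Dntt and Ptcra show no such rise.

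Of the genes that join receptor segments, Rag1 read 43.3 and 87.4 at nicotine 4.5, against 4.51 and 17.2 in saline, 3.21 and 2.28 at nicotine 1.5 and 3.12 and 1.73 at nicotine 3.0. Both nicotine 4.5 arrays were above all others, and saline replicate 2 was the highest of the rest. The log2 level was 6.37 ± 0.562 (SD, n = 2) at nicotine 4.5 and 4.38 ± 0.343 (SD, n = 6) in the other arrays, a difference of 1.99. Rag2, its partner in the recombinase, read 4.77 and 6.53 at nicotine 4.5, against 2.13 and 1.04 in saline, 1.23 and 2.24 at nicotine 1.5 and 1 and 1 at nicotine 3.0. These values did not overlap either, and the difference was 0.32, but every one lay far below the background limit.

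Dntt and Ptcra did not share the pattern. The Dntt probe set with the highest mean read 5.31 and 8.17 at nicotine 4.5, against 9.47 and 7.17 in saline, 6.11 and 4.93 at nicotine 1.5 and 12.5 and 10.5 at nicotine 3.0, a difference of -0.09. Its other 2 probe sets differed by 0.05 and -0.12, and none of the 3 exceeded 12.5 on any array. Ptcra read 6.54 and 1.56 at nicotine 4.5, against 2.94 and 2.20 in saline, 5.56 and 8.94 at nicotine 1.5 and 3.74 and 4.90 at nicotine 3.0, a difference of -0.04. In both genes the nicotine 4.5 arrays overlapped the others.

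By the probe set used for each gene, both nicotine 4.5 arrays were above all 6 other arrays in 7 of the 9 measured genes, and in 9 of the 16 probe sets. Among all 18194 genes, 4.91% had this order, and among all probe sets that name 1 gene, 5.06%. The members were picked for the order, so nothing is read from these shares. The median difference over the 9 genes was 1.12, against 0.01 over all genes. In all 7 genes replicate 2 of nicotine 4.5 was the higher of the pair. The mean log2 level over the 9 genes was 5.36 and 5.71 in the nicotine 4.5 arrays and 4.50 to 4.57 in the other 6.

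In comparisons among the other groups, no member passed a test. The choice favoured genes low in all arrays of these groups, which largely set this result in advance. The fit also took in the spread of the nicotine 4.5 arrays. That spread was wider than in the rest for Cd3e, Rag1 and Trbv1, and narrower for Cd3g and Cd8a. Nothing is therefore read from the lack of calls. Trbv1 and Cd8a were the 2 members that passed the filter on low levels, Trbv1 through its nicotine 4.5 values. At nicotine 3.0 against saline the log2 difference of Cd8a was 0.27 ± 0.16 (SE; limma, adjusted p = 0.364) and that of Trbv1 was -0.07 ± 0.30 (adjusted p = 0.908). At nicotine 1.5 against saline the adjusted p was 0.615 for Cd8a and 0.881 for Trbv1, and at nicotine 3.0 against nicotine 1.5 it was 0.839 and 0.849. Over all 13587 genes tested, 3.73%, 2.48% and 0% passed an adjusted p of 0.05 in these 3 comparisons, with 25%, 21.1% and 10.8% at an unadjusted p under 0.05.

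A limma fit without the level filter, which reads all 9 genes, gave no adjusted p under 0.354 and no unadjusted p under 0.056 for any of them in the 3 comparisons. The same limits hold for this fit. Rag1 had the widest gap, -0.50 ± 0.33 (SE) at nicotine 3.0 against saline and -0.46 ± 0.33 at nicotine 1.5 against saline, and saline replicate 2 was the array that read 17.2. The highest differences were 0.34 ± 0.15 for Dntt at nicotine 3.0 against nicotine 1.5 and 0.33 ± 0.18 for Ptcra at nicotine 1.5 against saline. All of these values lay under the background limit.

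Other genes of the lineage were read from 3 lists: T cell receptor and signalling genes, T lineage transcription factors, and genes of thymocyte stages and receptor joining. Of their 81 genes, members left out, 71 had a probe set and 51 passed the level filter. In nicotine 4.5 against the other 6 arrays, 0 of the 51 passed an adjusted p of 0.05 in limma, against 0.0662% of all genes tested, and 7 were higher and 3 lower at an unadjusted p under 0.05. That is 19.6% of the 51, against 12.4% of all genes. The median difference over the 51 was 0.07, against 0.01 over all genes tested. Both nicotine 4.5 arrays were above all others in 9 of the 71 (12.7%, against 4.91% of all genes), and by 1 log2 unit or more in 4 (5.63%, against 0.374%). They were below all others in 2 of the 71, against 4.01% of all genes. Of the 51, 2 (Ccr9 and Cd5) passed the filter only through their nicotine 4.5 values, so these counts hold 2 genes that had to differ. The lists were also chosen with earlier results of these data known, so the shares are a description and lend no support.

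Those with the order were Ccr9, Themis, Cd27, S1pr1, Cd8b1, Cd28, Lat, Sh2d1a and Il2ra. Only Ccr9 and S1pr1 were above the background limit in both nicotine 4.5 arrays. The rest were under it in at least 1 of them, where the order of intensities is not reliable. Il2ra, for example, read 14.7 and 14.7, against 9.81 to 13.7. In the deposited intensities S1pr1, Cd27, Cd28 and Lat overlapped the other arrays. The 2 that lay below all others were Xrcc5 and Prkdc, which encode subunits of the DNA-dependent protein kinase of DNA end joining. Xrcc5 read 47.3 and 38.9 at nicotine 4.5, against 57.99 to 110, a difference of -0.48 ± 0.16 (SE; limma, adjusted p = 0.335), and Prkdc 47.2 and 39.99, against 52.6 to 67.5. Ccr9, the receptor that guides precursors and thymocytes toward the chemokine CCL25, read 45.4 and 165 at nicotine 4.5, against 5.94 to 12.7 in the other arrays. Its difference was 2.20, which is a description, since the gene passed the filter only through its nicotine 4.5 values. The name of the Ccr9 probe set also ends in _x_at, so its probes can bind other transcripts too. S1pr1, which lets mature T cells leave the thymus and also acts in blood vessels, differed by 1.26 ± 0.38 (SE; limma, adjusted p = 0.299). Lat, an adaptor of receptor signalling, differed by 0.50 ± 0.13 (adjusted p = 0.263). Jak3, a kinase of cytokine receptors, differed by 0.67 ± 0.21 (adjusted p = 0.302). Ptpn22, a phosphatase that dampens receptor signalling, differed by 0.45 ± 0.18 (adjusted p = 0.379) and Prkcq, a kinase downstream of the receptor, by 0.56 ± 0.23 (adjusted p = 0.386), and both overlapped the other arrays. Arpp21, a gene of early thymocytes and of neurons, read 273 and 328 against 84.9 to 293, a difference of 0.69 ± 0.20 (adjusted p = 0.279).

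Some dim genes are described by choice after their values were seen, since the filter kept them out of the test. Themis, which tunes receptor signalling during selection, read 24.4 and 58.0 at nicotine 4.5, against 1 to 6.23 in the rest, a difference of 1.58. Cd8b1, the partner chain of Cd8a, read 14.8 and 15.3, against 1.07 to 5.86, a difference of 0.77. Cd27, a costimulatory receptor, read 10.96 and 49.5, against 3.34 to 11.4, so that its lower nicotine 4.5 array was close to the highest of the rest. Cd4, the other coreceptor, read 3.26 and 8.42 at nicotine 4.5, against 1 to 4.81, below the limit on all arrays. Other untested genes of the receptor list overlapped as well. Cd247, Ptprcap, Sla2, Cd6, Cd2, Skap1 and Tcra differed by 0.43 down to 0.01. Ubash3a, Ctla4 and Trat1 differed by -0.14, -0.31 and -0.33. Of the 19 transcription factors measured, 0 had the order, against 4.91% of all genes, so nothing is read from that count. Bcl11b, a commitment factor of the lineage that is also expressed in epithelia and neurons, read 90.8 and 165 at nicotine 4.5, against 70.5 to 312.

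**Figure D3:**
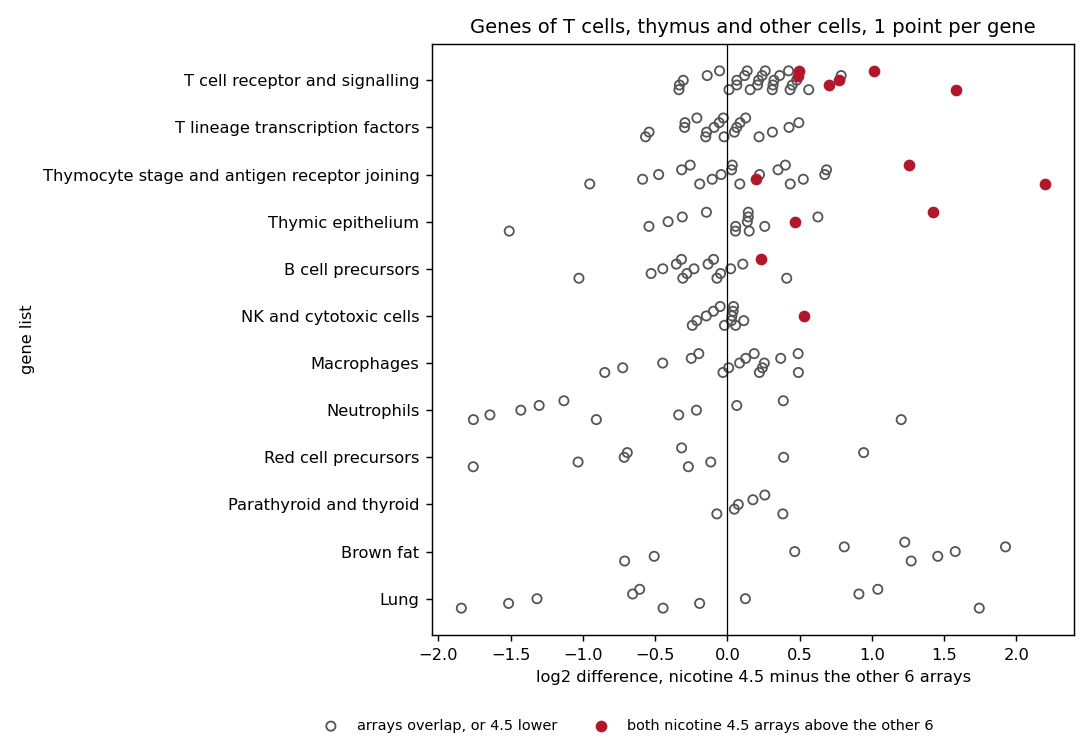
Log2 difference between the nicotine 4.5 arrays and the other 6 arrays for each measured gene of 12 lists, 1 point per gene; filled points are genes whose 2 nicotine 4.5 arrays both lie above the other 6 after normalization. Filled points number 6 in the receptor list, 3 in the thymocyte stage list, 2 in the thymic epithelium list and 1 each in the lists of B cell precursors (Pax5) and of NK and cytotoxic cells (Gzma).

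Set against saline alone, the nicotine 4.5 arrays gave 3 higher and 2 lower genes among the 51 tested (limma, adjusted p under 0.05), where 2.91% of all genes were higher and 3.97% lower. Over all genes 395 of 934 calls were higher, and with values as deposited 206 of 942 were. Arpp21 rose by 1.49 ± 0.24 (SE; adjusted p = 0.0209), and S1pr1 by 2.09 with adjusted p = 0.0471. The third was Ccr9, higher by 2.12, whose test lends no support because of how it passed the filter. Cd24a, a surface protein of immature thymocytes and many other cells, fell by 1.22 (adjusted p = 0.0316), and Hes1, a target of Notch signalling, fell by 0.98 (adjusted p = 0.0375). The calls of Arpp21, S1pr1, Cd24a and Hes1 were lost without either nicotine 3.0 array, at adjusted p of 0.0597 to 0.105, and without either nicotine 4.5 array. Without saline replicate 2 the adjusted p was 0.0699 for S1pr1, 0.0763 for Cd24a and 0.0918 for Hes1. S1pr1 was also lost without saline replicate 1 (adjusted p = 0.109), with values as deposited (0.0595), with arrays centred on their medians (0.0505), with an added constant of 1 (0.0542) and without the level filter (0.0527).

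Thymic epithelium is the stroma that supports these cells. Of 15 measured genes of it, 8 were tested and 0 passed in nicotine 4.5 against the other arrays, with 2 higher and 1 lower at an unadjusted p under 0.05. Of all genes tested, 0.0662% passed and 12.4% had an unadjusted p under 0.05. Prss16, a peptidase of cortical thymic epithelium, read 38.9 and 63.6 at nicotine 4.5, against 4.71 to 18.6 in the rest, a difference of 1.42, again a description, since Prss16 passed the filter only through its nicotine 4.5 values. Krt8, a keratin of thymic and many other epithelia, went the other way, at 94.95 and 194 against 86.1 to 1726, a difference of -1.51 ± 0.39 (SE; limma, adjusted p = 0.243). Hoxa3, a patterning gene of the pharyngeal region, differed by 0.63 ± 0.18 (adjusted p = 0.278), and it overlapped, at 122 and 89.4 against 33.9 to 132. Ccl25 read 14.6 and 39.45 at nicotine 4.5, against 9.58 to 162, the high end being saline replicate 1. Against saline alone 1 gene was called higher, Prss16, and 1 lower, where 2.91% of all genes were higher and 3.97% lower. The Prss16 call lends no support because of how the gene passed the filter. The lower one, Krt8, fell by 3.18 (adjusted p = 0.0165), a call lost without nicotine 4.5 replicate 1 (0.0914) or replicate 2 (0.0541). Foxn1, the master regulator of this epithelium, read 8.31 and 13.9 at nicotine 4.5, against 5.53 to 24.9, Psmb11 8.70 and 9.87 against 4.20 to 9.82, and Aire 2.36 and 10.2 against 4.17 to 6.80. These 3 defining genes were below the limit on every array. Tbata, also below it, read 20 and 16.3 at nicotine 4.5, against 6.80 to 11.2 in the rest. The name of its probe set ends in _x_at. Tbata and Prss16 were the 2 of the 15 genes with both nicotine 4.5 arrays above all others, against 4.91% of all genes. Genes above the limit numbered 7 in each nicotine 4.5 array, against 4 to 6 in the others. These counts are a description, since the list was chosen with earlier results known.

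Markers of other cells were read beside the T cell genes, and their part in the result was not tested. Of 16 B cell precursor genes, 2 and 1 were above the limit in the nicotine 4.5 arrays, against 2 to 9 in the others, and the summed intensity was 557 and 397, against 471 to 853. The high end was saline replicate 2, in which Cd79b, a B cell receptor subunit, read 75.7, Vpreb1, a surrogate light chain, 44.1 and Ighm, the IgM heavy chain, 160. In the nicotine 4.5 arrays Vpreb1 read 7.41 and 8.64 and Cd79b 9.74 and 10.3, while Ebf1, a factor of B cells and also of stroma, read 322 and 191 and Igll1, a surrogate light chain, 50.5 and 22.2. Blnk, a B cell adaptor, read 7.86 and 8.98 at nicotine 4.5, against 11.7 to 95.4, a difference of -1.03 ± 0.24 (SE; limma, adjusted p = 0.218). None of 13 genes of NK and cytotoxic cells was above it on any array, though Gzma, a granzyme, read 21.9 and 22.1 at nicotine 4.5 against 9.35 to 16.7.

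**Figure D4:**
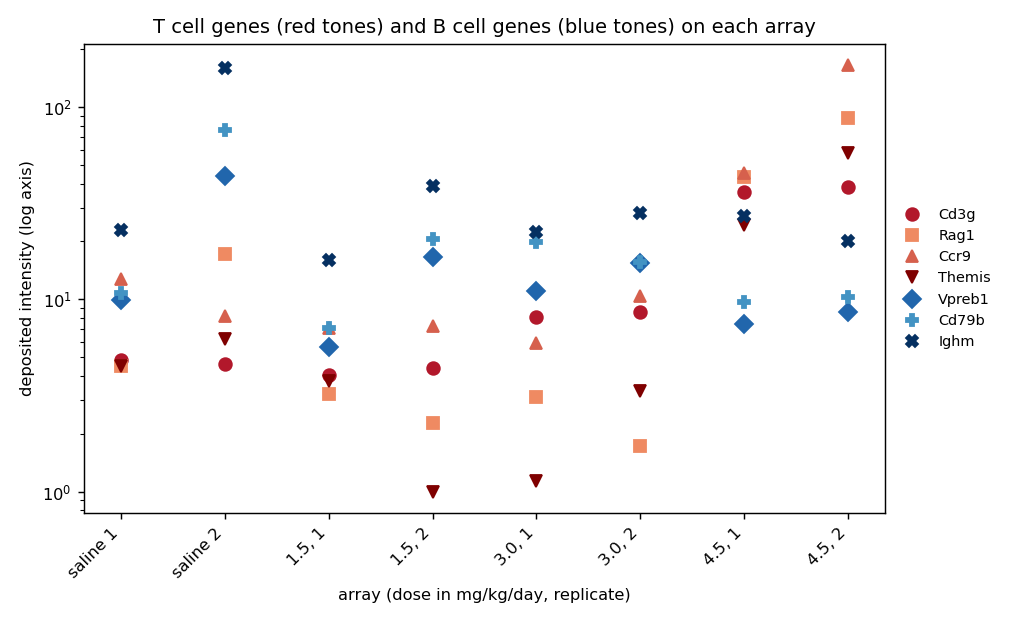
Deposited intensity on a log axis of 4 T lineage genes (Cd3g, Rag1, Ccr9, Themis; red tones) and 3 B lineage genes (Vpreb1, Cd79b, Ighm; blue tones) on each array, ordered by dose in mg/kg/day and replicate. The genes shown were chosen after their values were seen. These 4 T lineage genes are highest in the nicotine 4.5 arrays. These 3 B lineage genes are highest in saline replicate 2, where Rag1, which also acts in B cell precursors, reads 17.2. Other genes of the lists go otherwise: Tcra read 4.86 and 5.76 at nicotine 4.5, against 2.17 to 8.05. Ebf1 was highest in nicotine 4.5 replicate 1 (322) and Blnk in saline replicate 1 (95.4).

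Over 16 macrophage genes the median log2 level was 7.41 and 8.07 at nicotine 4.5, against 7.15 to 7.77, with 13 above the limit in both nicotine 4.5 arrays and 13 or 14 elsewhere. Cx3cr1, a chemokine receptor, differed by -0.72 ± 0.20 (SE; limma, adjusted p = 0.259) and Mpeg1, a macrophage perforin, by -0.45 ± 0.19 (adjusted p = 0.401). Ptprc, which encodes CD45 of all white blood cells, read 110 and 338 at nicotine 4.5, against 83.7 to 185. The neutrophil median was 5.99 and 5.94 at nicotine 4.5 and the red cell median 5.53 and 5.02, in the low part of the ranges above. Camp, an antimicrobial peptide of neutrophils, read 44.1 and 22.6 at nicotine 4.5, against 45.3 to 1067 (difference -1.76 ± 0.72, adjusted p = 0.398). Parathyroid and thyroid genes, of organs that lie near the thymus, had a median of 5.30 in both nicotine 4.5 arrays, against 5.01 to 5.52, with 1 of 6 above the limit.

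Genes of 2 other tissues varied more widely between arrays. The median over 9 brown fat genes was 10.95 and 9.48 at nicotine 4.5, with summed intensities of 21481 and 9410, against medians of 5.91 to 11.27 and sums of 2023 to 23961 in the rest, the nicotine 3.0 pair being highest. The median over 11 lung genes was 6.31 and 6.65 at nicotine 4.5, against 4.67 to 9.79, with 3 of the other arrays higher. The brown fat genes with an unadjusted p under 0.05 were Cidea (difference 1.92 ± 0.45, SE; limma, adjusted p = 0.218), Cox8b (1.27 ± 0.39, adjusted p = 0.302), Dio2 (0.81 ± 0.27, adjusted p = 0.319) and Cox7a1 (1.46 ± 0.57, adjusted p = 0.378), and each overlapped the other arrays. The brown fat median of the nicotine 3.0 pair was 10.98 and 11.27. Whether other tissue in the samples bears on the T cell values was not tested.

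The genes most like the members were ranked by Pearson's r over the 8 arrays with the members' mean log2 level. Ranked were the 5842 non-member genes, those of the lists included, that passed the level filter and ranged over 1 log2 unit or more. Themis, Cd27, Cd28 and Cd8b1 did not pass the filter and were not ranked. With 2 arrays high and 6 low, such an r mostly reads the step between nicotine 4.5 and the rest, and it is given as a description. Ccr9 (r = 0.976) and Prss16 (r = 0.957), which passed the filter only through their nicotine 4.5 values, came first. They were followed by Cd74 (r = 0.931), the invariant chain of MHC class II molecules, and Net1 (r = 0.920). H2-Ea (r = 0.914), an MHC class II alpha chain, was the fifth, and Mylip, Slc31a2, Zdhhc23, Cxcl17 and Sctr lay between 0.903 and 0.893.

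Cd74 read 66.9 and 116 at nicotine 4.5, against 31.8 to 50.1 in the rest, and H2-Ea 46.6 and 88.7, against 16.2 to 35.6. Mylip, a ubiquitin ligase of the LDL receptor, read 341 and 286, against 120 to 180. In Mylip and Zdhhc23 replicate 1 was the higher of the nicotine 4.5 pair, and in the other 8 of the 10 genes replicate 2 was. The choice of these 10 by likeness to the members set their order between the groups, so no test of it is given. In the fit of nicotine 4.5 against the other 6 arrays 9 of 13587 genes passed, and the 1 that was higher (0.00736% of genes tested) was Trbv1 itself, which was chosen for this contrast. The lower ones were Cym, Apoa4, Fabp2, Bpifb1, 2210407C18Rik, Slc3a1, Gkn2 and Clps, each far higher in both saline arrays than in any other. All but Slc3a1 overlapped between nicotine 4.5 and the other nicotine doses.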

How the data were processed

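Total RNA of tissue labelled as newborn palate was read on 8 Affymetrix arrays, per the labels' protocols. The deposited intensity values are linear summaries of 45101 probe sets made by the authors. Their summarization, background correction and scaling were not given in the sources used here. Array medians lay between 20.7 and 25.4 intensity units. The number of arrays limits the precision.

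Symbols came from the platform annotation: 34958 probe sets named 1 gene, 932 several and 9211 none or a control. Values were taken as log2(intensity + 16) and quantile-normalized, since array medians on that scale differed by 0.17. Each gene was read through its probe set with the highest mean. Genes under the 40th percentile of probe-set means (log2 4.94) were not tested, which left 13587 genes. Group means were fitted over 8 arrays with limma 3.58.1 (lmFit, eBayes) in R 4.3.3. Tests were two-sided, with Benjamini-Hochberg adjustment over all genes tested. The script was tested on simulated data. Alternatives changed the normalization, added constant, filter, background limit, array weights, replicate block and arrays used.

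The members and lists were chosen with earlier results of these data known. Genes named are all members, up to 6 per list with the smallest p where it was under 0.05, and the 10 most alike. Genes outside this, including the list markers given beside the result, were chosen after their values were seen.

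Replicate numbers recur across groups, but the labels give no shared litter or day. Deviations of arrays with the same number correlated at -0.22 to 0.33 over genes, so the numbers were not used as pairs.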

Additional observations from a re-analysis of the deposited data

How the results depend on the processing

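The count of 9 genes for nicotine 4.5 against the other 6 arrays became 5 with a filter at the 60th percentile, 2 with a replicate block, 0 without both saline arrays (an alternative chosen after seeing the data) and 0 to 45 with 1 array left out. It was 0 without nicotine 3.0 replicate 1 or either nicotine 4.5 array, and 45 without nicotine 1.5 replicate 2. The count of 934 for nicotine 4.5 against saline became 522 with the block, 441 with array weights and 152 to 1428 with 1 array left out. The count of 507 for nicotine 3.0 against saline became 278 with the block and 50 to 1056 with 1 array left out. The count of 337 for nicotine 1.5 against saline became 156 with an added constant of 1, 157 with the block, 130 with weights and 98 to 975 with 1 array left out. The count of 0 for nicotine 3.0 against 1.5 became 0 to 35. The median member difference of 1.12 became 2.03 with an added constant of 1, 0.77 with 32, and 0.82 to 1.42 with 1 array left out. The 3 members above background in both nicotine 4.5 arrays became 5 with a limit at the 50th percentile, 1 at the 70th, 5 with a limit from 80 olfactory and vomeronasal receptor probe sets (log2 4.93 to 5.26) and 3 to 6 with 1 array left out, 6 being nicotine 4.5 replicate 2 alone. With values as deposited the count was 2. The Trbv1 difference was 1.37 as the mean of its probe sets. No called result reversed. The Ptcra difference of -0.04, well under background, was 0.02 with arrays centred on their medians and 0.14 without nicotine 4.5 replicate 2, and that of Dntt was 0.0037 without nicotine 4.5 replicate 1. Of the 3 T lineage lists, 0 tested genes passed under any alternative in nicotine 4.5 against the other arrays. Against saline, the block took the calls of Ccr9, S1pr1, Prss16, Cd24a and Hes1, and array weights took these and Krt8. Prss16 was also lost with an added constant of 1 (adjusted p = 0.0508), and Ccr9 as deposited (0.0512) and with a constant of 32 (0.058). With 1 array left out, Ccr9 had adjusted p up to 0.106 and Prss16 up to 0.112. The cause of these changes was not tested. A fit that leaves out 1 array assumes that the lone array of its group varies like the others. Signal over background limits the dim members: intensities under the limit have no reliable order.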
